A study of Mus musculus with 2 samples.

Results

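The genes of the type 2 response, Il4, Il5, Il13, Areg and Arg1, were read together with Il6 and with Rad50, which lies between Il13 and Il5, in single nuclei of fetal mouse lung. These 7 genes were chosen by name among 32285 gene features, and 104 of 152363 merged open regions lay within 100 kb of their starts. Nuclei were collected on gestation day 18 from wild-type C57BL/6J fetuses, and the RNA and the open chromatin of the same nucleus were measured with the 10x Multiome assay. In the OVA group 8 fetuses of 1 mother with ovalbumin (OVA)-induced asthma were pooled into 1 library, and in the PBS group 9 fetuses of 1 control mother were pooled into 1 library. The dams, 6 to 8 weeks old, were given alum with 100 µg OVA (OVA group) or alum without it (PBS group) by intraperitoneal injection on days -21 and -7. They were then given 500 µg OVA or PBS into the nose every few days from gestation day 4 to 17. Each pool was sorted for group 2 innate lymphoid cells (ILC2s, taken as lineage-negative CD45+ cells with ST2, the IL-33 receptor), for all CD45+ cells and for EpCAM+ epithelium. The labels give all 3 populations for each library, and the proportions loaded are not given in the sources used here, so shares of cell types are not compared. Nuclei assigned to fibroblasts by the marker gates, which none of these sorts should pass, were 17.2% and 20.8% of the nuclei kept in the PBS and OVA libraries.

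ILC2s are tissue lymphocytes that do not carry an antigen receptor and answer epithelial alarm cytokines such as IL-33. They are known for secreting IL-5, which feeds eosinophils, and IL-13, which drives mucus and airway reactivity, together with amphiregulin, an EGF-family ligand that acts on epithelium. Il4, Il13, Rad50 and Il5 form the type 2 cytokine locus, and the 3′ introns of Rad50, a gene of DNA repair, hold the locus control region described in T helper 2 cells.

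All 4 genes of the locus lie on chromosome 11 of mm10 (GRCm38): Il4 at chr11:53602982-53618669 (minus strand), Il13 at chr11:53631324-53634702 (minus), Rad50 at chr11:53649519-53707319 (minus) and Il5 at chr11:53720794-53725106 (plus). The others lie apart, Areg at chr5:91139599-91148432 (plus), Il6 at chr5:30013114-30019981 (plus) and Arg1 at chr10:24915221-24927484 (minus). Il5 overlaps Gm12214, a feature on the opposite strand that was at 0 UMIs (unique molecular identifiers, each counting 1 captured RNA molecule) in every gated class compared, and no other member overlaps a counted feature. RefSeq promoters (GRCm38.p6) were matched for 5 of the 7 genes, and not for Rad50 and Arg1. The 250 bases upstream of the start are shown for 4 genes because the cells with open sites at or near their starts differed. For Il13 these were ILC2s and mast cells or basophils, and for Il5 mainly ILC2s. For Il6 they were mast cells or basophils, macrophages, stroma and epithelium, with ILC2s low. For Areg they included ILC2s, mast cells or basophils and epithelium. Capitals mark matches on either strand to words of GATA factors (AGATAA and also AGATAG, then TGATAA as well as TGATAG), to the AP-1 word TGANTCA, to the cAMP response element (CRE) TGACGTCA and to the glucocorticoid receptor half-site AGAACA. None of the matches overlap.
Il13 promoter (chr11:53634703-53634952, minus strand): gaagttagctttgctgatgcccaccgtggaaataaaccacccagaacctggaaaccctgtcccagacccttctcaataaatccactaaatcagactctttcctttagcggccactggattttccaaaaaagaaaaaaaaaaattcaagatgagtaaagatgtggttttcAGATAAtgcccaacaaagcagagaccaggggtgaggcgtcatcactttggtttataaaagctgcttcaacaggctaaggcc
Il5 promoter (chr11:53720544-53720793, plus strand): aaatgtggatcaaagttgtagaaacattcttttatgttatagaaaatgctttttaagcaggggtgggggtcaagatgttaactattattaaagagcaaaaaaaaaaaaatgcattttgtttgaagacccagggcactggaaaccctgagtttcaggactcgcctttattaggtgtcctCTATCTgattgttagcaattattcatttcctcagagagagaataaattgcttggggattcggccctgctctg
Areg promoter (chr5:91139349-91139598, plus strand): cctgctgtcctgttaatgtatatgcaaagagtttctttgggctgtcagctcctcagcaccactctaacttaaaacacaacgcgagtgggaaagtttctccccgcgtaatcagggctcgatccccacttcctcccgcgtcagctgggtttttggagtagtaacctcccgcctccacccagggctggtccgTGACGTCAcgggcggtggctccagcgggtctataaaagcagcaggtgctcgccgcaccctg
Il6 promoter (chr5:30012864-30013113, plus strand): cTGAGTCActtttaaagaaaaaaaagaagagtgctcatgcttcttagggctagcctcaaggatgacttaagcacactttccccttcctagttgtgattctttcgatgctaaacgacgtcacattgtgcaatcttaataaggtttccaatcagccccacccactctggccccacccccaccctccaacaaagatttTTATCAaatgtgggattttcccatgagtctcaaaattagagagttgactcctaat
The Il13 promoter held AGATAA at bases -81 to -76 and the Il5 promoter held AGATAG on the opposite strand at -72 to -67. The Areg promoter held the CRE at -61 to -54, and the Il6 promoter held an AP-1 match at -249 to -243 and TGATAA on the opposite strand at -55 to -50. Il4 held none of these motifs, and AGAACA was in none of the 5. Among 32851 promoters of the same length, 26.54% held any of the GATA words, 6.749% the AP-1 word, 1.546% the CRE and 16.08% AGAACA. A match is a description of the letters only. The printed windows of Il13, Areg and Il6 lay wholly within a region open in both libraries, whereas those of Il5 and of Il4 (not shown) had no base within one.

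Nuclei were gated by fixed markers that include none of the 7 genes, such as Gata3, Il1rl1, Icos and Il7r for ILC2s and Kit, Cpa3, Gata2 and Ms4a2 for mast cells or basophils. There were 318 (PBS) and 459 (OVA) ILC2-gated nuclei, of which 95.6% and 98.0% fell into clusters with the ILC2 markers. The label held on genes left out of the gate. Ikzf3 was detected in 51.3% and 72.1% of ILC2-gated nuclei against 0.810% and 0.778% of all nuclei gated to another type, and Calca in 64.8% and 73.4% against 2.21% and 4.96%. The receptor Nmur1 was near 0 (0.314% and 0.218%). Of the T cell markers, Cd3g was detected in 8.49% and 9.15% of ILC2-gated nuclei and Lef1 in 3.14% and 4.14%, Cd3e and Trac in at most 1.74%, and Cd4 and Cd8a in none. Mast cell- or basophil-gated nuclei (67 and 110) were less well separated, with 58.2% and 68.2% of them in the mast cluster. Cpa3 was detected in 68.7% and 73.6% of them and Fcer1a in none, both genes of the gate. Genes left out of it were weaker checks. With ILC2-gated nuclei in brackets, Alox5 was in 5.97% and 17.3% (0.629% and 0.871%) and Cd200r3 in 8.96% and 17.3% (0.943% and 0.654%). Prss34 was in 7.46% and 6.36% (0% and 0.218%). Mitf was in 13.4% and 31.8%, but also in 10.7% and 16.1% of all nuclei gated to types other than ILC2. Rab27b, in 26.9% and 40.9%, did not separate them from ILC2s (26.4% and 52.5%). A further 30 and 76 nuclei met neither gate but had at least 2 markers of both types, and more of both than of any other type. They were kept apart as mixed nuclei.

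The libraries differed in depth and quality, and each ratio between them is given with this in view. The PBS library had 4213 nuclei after filtering, a median of 1108 UMIs and 37.6% mitochondrial UMIs, against 4980 nuclei, 1818 UMIs and 28.1% in the OVA library. In ILC2-gated nuclei the medians were 852 and 1261 UMIs. The libraries shared 54 barcodes of 8019 and 5960. With 1 library per group there was no replicate and no test between groups. The 95% intervals given are exact, cover counting error only and treat counts of the same nucleus as independent, and every ratio compares these libraries, not the conditions. A gene or region was called when the ratio was at least 2-fold, the interval left out equality and at least 20 counts were seen.

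Il4, which encodes the cytokine that instructs type 2 T cells and IgE, was read at a few molecules per library, and its level was highest in ILC2-, mast cell- or basophil-gated and mixed nuclei. ILC2-gated nuclei of the PBS library held 7 UMIs, or 21.9 CPM (UMIs scaled by the total of all gene UMIs in the same nuclei, interval 8.79 to 45.03). Those of the OVA library held 17, or 25.2 CPM (14.7 to 40.3). Mast cell- or basophil-gated nuclei gave 2 and 6 UMIs (24.9 and 29.5 CPM), so the levels of both types overlapped. The sum over all other gated nuclei, mast cells or basophils included, was 3 and 10 UMIs. ILC2s were higher by 4.37 (2.24 to 6.95) and 3.84 (2.63 to 5.13) on the log2 scale. AT2- and AT1-gated nuclei had no UMI in either library. No ILC2-gated nucleus held more than 2 UMIs.

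Il13 followed the same types. ILC2-gated nuclei held 5 UMIs (PBS, 15.6 CPM, 5.07 to 36.4) and 30 (OVA, 44.4 CPM, 29.98 to 63.4), spread over 4 and 25 nuclei. Mast cell- or basophil-gated nuclei had 1 and 5 UMIs (12.5 and 24.6 CPM), and the log2 ratio of ILC2s to them in the OVA library was 0.85 (-0.53 to 2.58), with equality inside. Against all other gated nuclei ILC2s were higher by 5.39 (4.11 to 6.95) in the OVA library and by 4.47 (1.86 to 7.86) in the PBS library, where both sides had only 7 UMIs between them. Fibroblast-gated nuclei, which should not make IL-13, had a UMI in 0 of 725 and 0 of 1035 nuclei, at medians of 1094 and 1947 UMIs. Bounded with 3 counts rather than by an exact interval, this allows shares of nuclei with a UMI of up to 0.414% and 0.290%. The ILC2 share in the OVA library, 5.45% (3.56 to 7.94), lay above that limit at lower depth. The interval of the PBS share, 1.26% (0.344 to 3.19), reached below it.

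The 76 mixed nuclei of the OVA library held 19 Il13 UMIs (128 CPM, 76.9 to 199.5), up to 6 in a single nucleus, against 0 in the 30 mixed nuclei of the PBS library. Il4 (8 UMIs) and Areg (15 UMIs) were also read there. In these nuclei Calca was detected in 72.4% and Ikzf3 in 59.2%. Whether they are doublets or cells with both programmes was not tested.

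Il5 was the rarest of the cytokines. It was at 0 UMIs in all 4213 nuclei of the PBS library, which for ILC2s allows up to 9.37 CPM, and at 7 UMIs in 6 ILC2-gated nuclei of the OVA library (10.4 CPM, 4.17 to 21.4). No other kept nucleus of the OVA library held a UMI. For ILC2s of that library over all other gated nuclei, at 0, the exact interval of the log2 ratio began at 3.5997. The nuclei with Il5 were deep ones, with a median of 2006 UMIs against 1261 for all ILC2-gated nuclei.

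Il6, a cytokine of mast cells, macrophages and stroma, had the opposite distribution. ILC2-gated nuclei held 0 (PBS) and 1 (OVA) UMIs, whereas mast cell- or basophil-gated nuclei held 4 (49.9 CPM) and 28 (138 CPM, 91.4 to 199). Of those 28 UMIs, 10 were in a single nucleus. Fibroblast-gated nuclei had 14 and 43 UMIs (14.0 and 18.2 CPM), and macrophage-gated nuclei 4 and 17 (11.3 and 17.4 CPM). In the OVA library the mast level was above the fibroblast level by 2.92 (2.17 to 3.64), and fibroblasts, macrophages and AT2 nuclei could not be ordered. ILC2s were lower than all other gated nuclei by a log2 ratio of -3.74 (-9.05 to -1.23).

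Areg had the most UMIs of the 7 genes in ILC2-gated nuclei of each library, and alveolar epithelium held it too. Over all kept nuclei it led in the OVA library (374 UMIs against 286 of Rad50), whereas Rad50 led in the PBS library (144 against 95). ILC2-gated nuclei had 17 UMIs (PBS, 53.1 CPM, 30.9 to 85.0) and 97 (OVA, 144 CPM, 116 to 175). Alveolar type 2 (AT2)-gated nuclei, the surfactant-producing cells, had 28 and 85 UMIs (37.4 and 99.1 CPM), and flat gas-exchange alveolar type 1 (AT1)-gated nuclei 7 and 34 (29.6 and 60.7 CPM). By CPM the order was ILC2, AT2, AT1 in both libraries. By the share of nuclei with a UMI AT2 came first, at 5.47% and 14.8% against 3.77% and 11.98% of ILC2-gated nuclei. AT2-gated nuclei were deeper, at medians of 1324 and 1955 UMIs against 852 and 1261. After thinning to equal depth, AT2 came first only in the PBS library, at 4.31% (2.43 to 7.01) against 2.67% (0.731 to 6.69). In the OVA library ILC2s then came first, at 9.69% (6.95 to 13.1) against 5.66% (3.39 to 8.80). These intervals overlapped in both libraries. In the OVA library each step of the CPM order left out equality, at 0.54 (0.10 to 0.97) and 0.71 (0.12 to 1.32). In the PBS library neither step did, at 0.51 (-0.45 to 1.43) and 0.33 (-0.89 to 1.77). Fibroblast-gated nuclei, with a UMI in 0.138% and 0.773% of nuclei, were far lower (1 and 8 UMIs). Against all other gated nuclei ILC2s were higher by 1.88 (0.97 to 2.73) and 2.49 (2.11 to 2.87). Detection was spread over 12 and 55 ILC2-gated nuclei, 20 of the latter with at least 2 UMIs, and the most in a nucleus was 10.

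Arg1, which splits arginine and is a known marker of resting lung ILC2s, was highest in ILC2s of the types compared in both libraries. The mixed nuclei, left out of that order, held 0 and 6 UMIs, the latter 40.3 CPM (14.8 to 87.8) with an interval that overlapped that of ILC2s. ILC2-gated nuclei held 14 UMIs (PBS, 43.7 CPM, 23.9 to 73.3) and 20 (OVA, 29.6 CPM, 18.1 to 45.7). The next type was AT1 in the PBS library (1 UMI) and AT2 in the OVA library (7 UMIs, 8.16 CPM), and both steps left out equality, at 3.37 (0.65 to 8.77) and 1.86 (0.56 to 3.34). Macrophage-gated nuclei, in which Arg1 marks alternative activation, had only 1 and 5 UMIs (2.81 and 5.10 CPM). Against all other gated nuclei the log2 ratios were 4.37 (2.90 to 6.04) and 3.31 (2.30 to 4.33).

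Rad50, a subunit of the MRN complex that senses DNA breaks, was read in nearly every type. ILC2-gated nuclei had 13 and 38 UMIs (40.6 and 56.3 CPM), mast cell- or basophil-gated nuclei 6 and 8 (74.8 and 39.3 CPM) and fibroblast-gated nuclei 21 and 75 (20.97 and 31.8 CPM). None of the steps between neighbours in the order of types left out equality. ILC2s were above all other gated nuclei by 0.99 (-0.00 to 1.87) and 1.13 (0.58 to 1.65), against 4.37 and 3.84 for Il4.

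**Figure D1:**
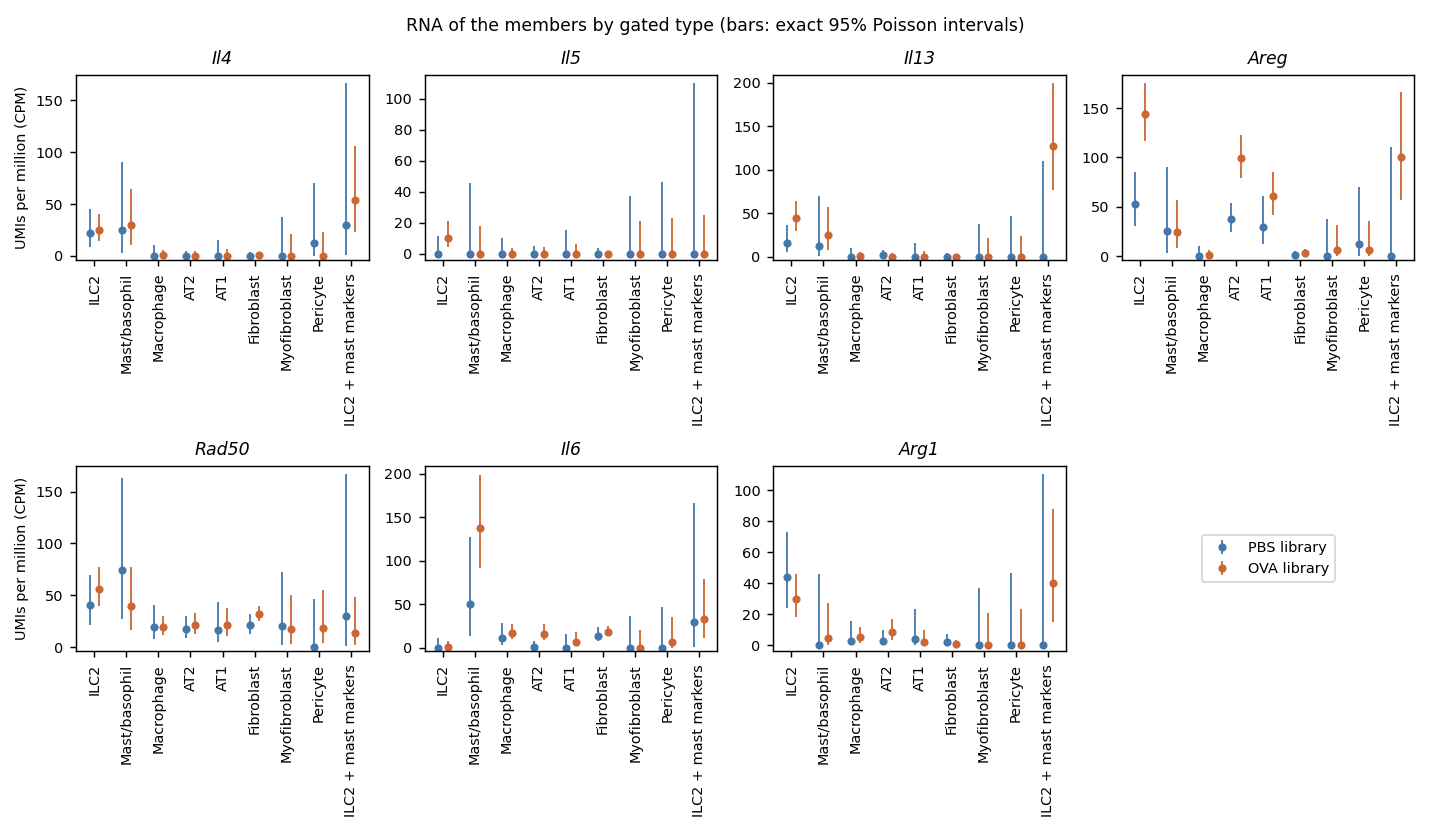
RNA level of the 7 genes in each gated type, in CPM on a linear axis, with the PBS library in blue and the OVA library in orange and bars for exact 95% Poisson intervals. Il4, Il13, Il5 and Arg1 sit highest in ILC2-gated, mast cell- or basophil-gated or mixed nuclei, Il6 peaks in mast cell- or basophil-gated nuclei of the OVA library (138 CPM), and Areg is read in ILC2s, AT2 and AT1.

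Of the genes compared, 4 (PBS) and 6 (OVA) had the 20 UMIs that a call needs. In the PBS library 2 were called higher in ILC2s than in all other gated nuclei (Areg and Arg1) and none lower, against 7.82% and 20.5% of 9915 genes tested. In the OVA library 5 were higher (Il4, Il13, Areg, Arg1 and Rad50) and Il6 was lower, against 9.11% and 26.9% of 12192 genes. The median gene lay below equality in these comparisons, at -0.44 and -0.55, so the log2 ratios of the 7 genes are larger by those amounts relative to it. On a scale of nuclear-gene UMIs, leaving out mitochondrial genes, Rad50 was called in the PBS library too, and no other call changed.

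Few nuclei held more than 1 of these genes. In the OVA library 3 nuclei held both Areg and Il13, 2 held Il5 and Il13, and 1 held Il4 and Il13, of 459. The pair found most often was Areg with Rad50, in 8 nuclei. The median depth was 2700, 3173, 1498 and 1734.5 UMIs for these pairs and 1255 for the 3 nuclei with Il4 and Areg, against 1261 for all ILC2-gated nuclei. The part of depth in this was not tested.

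The genes most alike over the 8 gated types and both libraries (16 points, which share libraries and depth) were found by Pearson correlation of log2(CPM + 10). For Il4 they were Il1rl1 (0.958), the IL-33 receptor and a gate marker, Cd69 and Hs3st1. For Il13 they were Tex2 (0.964), Sytl3 and Tnfrsf9, and for Arg1 Lmo4 (0.924), Trbc1 and Setdb2. Areg was most like Igsf5 (0.909), Lrba and Pip5k1b, Il6 like Sqstm1 (0.878), Fnip1 and Slc22a3, and Rad50 like Gm16286 (0.9003), Arl5b and Tomm34. Il5 had too few UMIs for this.

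The chromatin of the type 2 locus was open in ILC2s in both libraries, also where the RNA was close to 0. Of the 104 regions near the 7 genes 78 had a peak in both libraries, 15 in the PBS library alone and 11 in the OVA library alone. Peaks had been called in each library on its own, so a region is counted only in a library that has a peak there. Counts are given as CPM too, here relative to all transposition counts of the same nuclei in regions shared by both libraries. In the PBS library 32 of the 83 regions tested were called more open in ILC2-gated nuclei than in all other gated nuclei and 18 less open, against 12.5% and 32.8% of 111367 regions. In the OVA library the numbers were 29 and 17 of 85, against 13.4% and 37.7% of 107866, and 24 regions were called more open in both. The median log2 ratio was 0.13 and 0.21 for these regions and -0.69 and -0.68 for all regions. When each nucleus was counted once per region, 21 of 64 and 28 of 77 were called more open, against 10.1% and 11.9% of all regions.

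Most of these regions lay in the chromosome 11 locus, where 23 of 47 regions tested (PBS) and 23 of 51 (OVA) were more open in ILC2s, 19 of them in both. Around Il13 the counts were 16 of 22 and 18 of 26. The sums within 100 kb of the Il13 start were 481.2 and 480.6 CPM in ILC2s, over 20448 and 22917 bp of regions. All other gated nuclei had 132 and 135, and the log2 ratios were 1.87 (1.76 to 1.98) and 1.83 (1.74 to 1.92). Around Il4 they were 1.69 (1.59 to 1.79) and 1.66 (1.57 to 1.74), from many of the same regions.

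The region over the Il13 start (chr11:53634259-53635068) had 49 (PBS) and 52 (OVA) counts in ILC2s, or 21.8 and 15.7 CPM, against 1.503 and 1.396 in all other gated nuclei. It holds the printed Il13 promoter with its AGATAA. Its log2 ratios were 3.86 (3.09 to 4.67) and 3.49 (2.78 to 4.23), and mast cell- or basophil-gated nuclei were close to ILC2s, at 18.3 and 10.99 CPM. A region about 1.6 kb upstream (chr11:53635862-53636742) was at 32.0 and 38.2 CPM in ILC2s and 5.08 and 5.80 in the others.

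Il4 was open inside the gene span given above, which is that of the GENCODE annotation. A region in an intron of that annotation, 12.97 kb from the start (chr11:53605032-53606366), had 114 and 144 counts in ILC2s, or 50.7 and 43.3 CPM. All other gated nuclei had 0.930 and 2.15 CPM, a log2 ratio of 5.77 (4.94 to 6.72) and 4.34 (3.82 to 4.88). Mast cell- or basophil-gated nuclei were lower too, at 5.65 and 17.3 CPM. The region nearest to the start, 1.22 kb inside the gene (chr11:53616966-53617938), was at 31.1 and 16.9 CPM in ILC2s against 1.86 and 2.58. Mast cell- or basophil-gated nuclei were at 11.3 and 20.4 CPM there, and the log2 ratios of ILC2s to them were 1.46 (0.40 to 2.73) and -0.28 (-0.97 to 0.45).

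Il5 had the sharpest contrast between chromatin and RNA. A region centred at -0.91 kb from its start (chr11:53719365-53720403) had 46 counts in ILC2s of the PBS library, in which no Il5 UMI was read, and 63 in the OVA library. All other gated nuclei, several times as many, had 4 and 6 counts, and mast cell- or basophil-gated nuclei 0 and 2. The ratios were 71.4-fold and 58.9-fold, or 6.16 (4.70 to 8.09) and 5.88 (4.68 to 7.38) on the log2 scale. Of the regions within 100 kb of Il5, 15 of 33 tested (PBS) and 15 of 36 (OVA) were called more open, and the 100 kb sum exceeded that of the others by 0.88 (0.80 to 0.97) and 0.82 (0.75 to 0.90). Many of these regions also lie within 100 kb of the Rad50 start, where 15 of 33 and 16 of 37 were called, and the window reaches the Il13 start. With a window of 50 kb the excess around Il5 was smaller in the PBS library and gone in the OVA library.

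Rad50 differed little between types at its own start, whereas its 3′ introns were far more open in ILC2s. The region over the Rad50 start (chr11:53706840-53707677) was at 42.7 and 26.2 CPM in ILC2s and 31.3 and 29.5 in the others, with log2 ratios of 0.44 (0.11 to 0.77) and -0.17 (-0.51 to 0.16). An intron region at -28.47 kb from the Il13 start (chr11:53662705-53663644) had 125 and 200 counts in ILC2s, or 55.5 and 60.2 CPM, against 2.29 and 1.93 CPM, a log2 ratio of 4.60 (4.03 to 5.21) and 4.96 (4.44 to 5.52). Mast cell- or basophil-gated nuclei were at 11.3 and 14.9. Further intron regions at chr11:53654802-53655696 and chr11:53656424-53657674 were higher in ILC2s by 2.90 and 3.84 (PBS) and by 3.35 and 3.11 (OVA), and there mast cell- or basophil-gated nuclei had 16.5 to 25.4 CPM. In the first of these regions they were above ILC2s in the PBS library, at 25.4 against 18.2 CPM. These intron regions lie in the part of Rad50 where the locus control region is known, which the data do not test. A region over a Rad50 exon (chr11:53682865-53683777) was less open in ILC2s, with 2 and 1 counts against 109 and 210 in the others.

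Both neighbours on the Il4 side held ILC2-open introns. In Sept8, a septin, the regions chr11:53520957-53521791 and chr11:53528342-53528872 were higher by 3.38 and 4.08 (PBS) and by 3.72 and 4.69 (OVA). In Kif3a, a motor of the cilium, the region chr11:53584664-53585485 was higher by 2.69 and 3.22. The regions over the starts of Sept8, Kif3a and Irf1 were called in neither library.

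**Figure D2:**
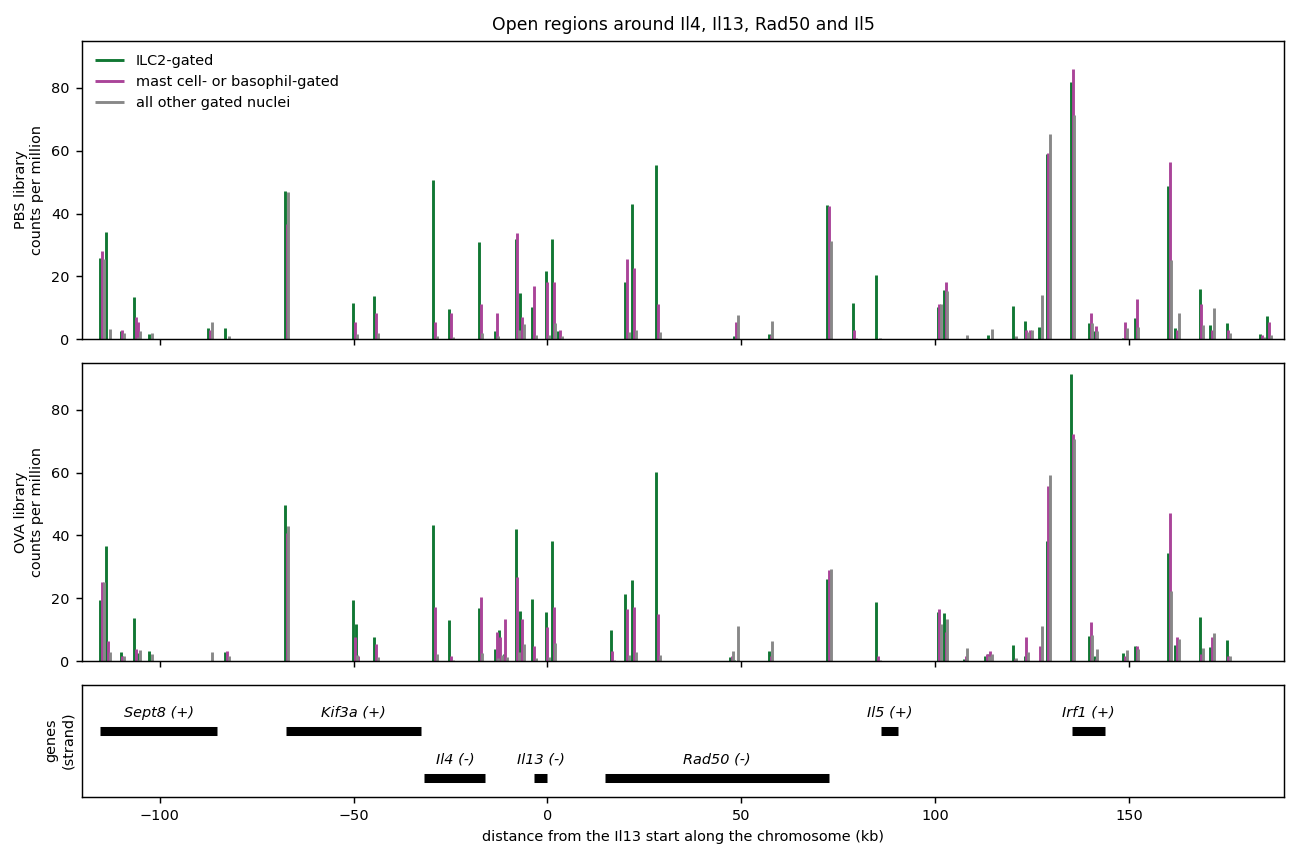
CPM in each open region of the type 2 cytokine locus, against distance in kb from the Il13 start, for ILC2-gated (green), mast cell- or basophil-gated (purple) and all other gated nuclei (grey) in the PBS and OVA libraries, with genes drawn below by strand. Grey bars are low in the Il4 introns, in the 3′ introns of Rad50 and just upstream of Il5, where green bars are high and purple bars range from near 0 upstream of Il5 to above green in an Il4 intron of the OVA library (20.4 against 16.9 CPM), whereas the starts of Kif3a, Rad50 and Irf1 are open in all classes.

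Areg differed from the locus genes. The region over its start (chr5:91139158-91140079), which holds the printed promoter and its CRE, was at 28.0 and 25.6 CPM in ILC2s and 13.5 and 10.6 in all other gated nuclei. The log2 ratios were 1.06 (0.62 to 1.48) and 1.27 (0.88 to 1.64). It was open in 9.75% and 9.59% of ILC2-gated nuclei, in 10.1% and 14.0% of AT2-gated and in 0.828% and 1.74% of fibroblast-gated nuclei, where "open" is at least 1 count within 2 kb of the start. Apart from the start, only 1 of the regions near Areg was called more open, in an Ereg intron in the OVA library (19 counts, 1.83). Of 7 (PBS) and 6 (OVA) regions tested, 4 and 3 were called less open, against 32.8% and 37.7% of all regions. The log2 ratio of the 100 kb sum had opposite directions, at -0.51 (-0.90 to -0.15) in the PBS and 0.32 (0.01 to 0.62) in the OVA library.

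The Il6 start (chr5:30012433-30013522) was nearly closed in ILC2s, with 2 and 8 counts against 20 and 28 in the much fewer mast cell- or basophil-gated nuclei. That was 0.889 and 2.41 CPM against 28.2 and 22.0, and 18.7 and 15.3 in all other gated nuclei. A count within 2 kb of the start was found in 13.4% and 15.5% of mast cell- or basophil-gated nuclei, 7.72% and 8.12% of fibroblast-gated and 8.10% and 6.55% of AT2-gated nuclei, but 0.314% and 1.09% of ILC2-gated nuclei. AT2 nuclei thus had an open Il6 start in both libraries with 1 and 14 Il6 UMIs.

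Arg1 had an ILC2-open start and ILC2-open sites upstream. The region next to the start (chr10:24927788-24928608) was at 28.9 and 18.4 CPM in ILC2s against 4.22 and 4.83, a log2 ratio of 2.77 (2.24 to 3.31) and 1.93 (1.43 to 2.41). The widest contrast was at -26.7 kb from the start (chr10:24953771-24954589), where ILC2s had 40 and 51 counts, mast cell- or basophil-gated nuclei 0 and 0 and all others 6 and 12, or 5.37 (4.12 to 6.90) and 4.57 (3.65 to 5.62). Over the 17 regions near Arg1, 6 of 14 tested and 3 of 15 tested were called more open in ILC2s, against 12.5% and 13.4% of all regions. Another 3 and 4 were called less open, against 32.8% and 37.7%. The median log2 ratio of the Arg1 regions was 0.00 and 0.09, against -0.69 and -0.68 for all regions. The 100 kb sum in ILC2s was above that of all other gated nuclei by 0.33 (0.15 to 0.50) and 0.31 (0.15 to 0.46).

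**Figure D3:**
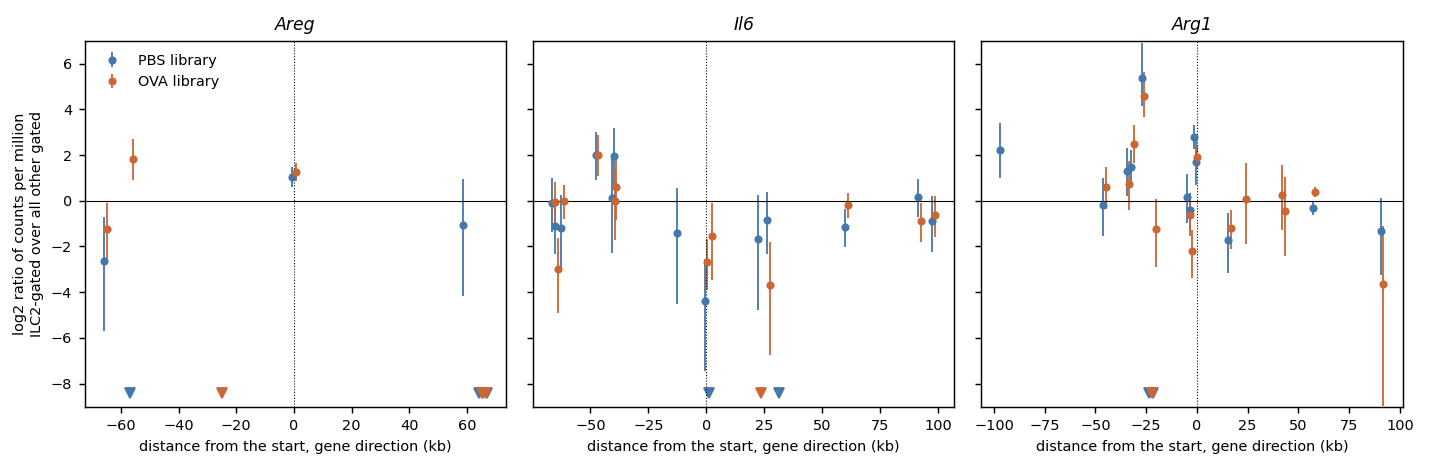
Log2 ratio of CPM in ILC2-gated over all other gated nuclei for each region near Areg, Il6 and Arg1 with at least 20 counts, against distance in kb from the gene start in the direction of the gene. Points are PBS (blue) and OVA (orange) values with exact 95% intervals, triangles at the bottom mark regions with 0 counts in ILC2s, and the Areg start lies above 0, the Il6 start below 0 and the Arg1 start and its upstream site above 0.

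In ILC2-gated nuclei each of the 7 starts was open in a minority of nuclei, from 0.314% to 18.1%. Within 2 kb of the Il13 start 16.7% and 18.1% of ILC2-gated nuclei had a count, and 1 of the 4 and 4 of the 25 Il13-positive nuclei were among them. For Il5 it was 7.23% and 6.75%, with 0 and 1 nuclei holding both. For Areg 3 of 12 and 4 of 55 ILC2-gated nuclei with a UMI had an open start, and 5 of 25 and 15 of 52 AT2-gated nuclei did. Both readouts are sparse, and no relation is read from these counts. Over the 100 kb around Il13, nuclei with an Il13 UMI had 521 CPM and those without 478 in the OVA library, a log2 ratio of 0.12 (-0.17 to 0.40). The same comparison for Il4, Areg and Arg1, and for all 4 genes in the PBS library, had equality inside every interval.

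Set among 32158 genes, the RNA per kb of gene ranked higher than the openness of the start for each member in ILC2s of the OVA library, and for each but Il5 and Il6 in those of the PBS library. The 2 ranks are not on a like scale. In ILC2s of the PBS and OVA libraries 63.6% and 58.1% of genes had 0 UMIs, but 40.5% and 41.1% had 0 counts at the start. Any gene with a UMI thus begins at a higher rank for RNA, and the order of the 2 ranks is not read as a result. In the OVA library Il13 was at percentile 98.6 for RNA and 82.4 for start accessibility, Areg at 98.9 and 67.6, Arg1 at 93.4 and 63.5, and Il4 at 90.6 and 62.6. In the PBS library Il13 was at 96.8 and 82.0 and Areg at 97.6 and 68.8. In the PBS library Il5 was at 31.8 (the shared middle rank of the 63.6% of genes with 0 UMIs) and 64.7, while its 7 UMIs in the OVA library put it at 93.4 and 63.8. Il6 was at 71.0 and 50.5 in ILC2s of the OVA library and at 99.1 and 72.8 in mast cell- or basophil-gated nuclei. A handful of UMIs is thus enough for a high rank in these sparse data, and ranks of genes with few UMIs carry the error of those counts.

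**Figure D4:**
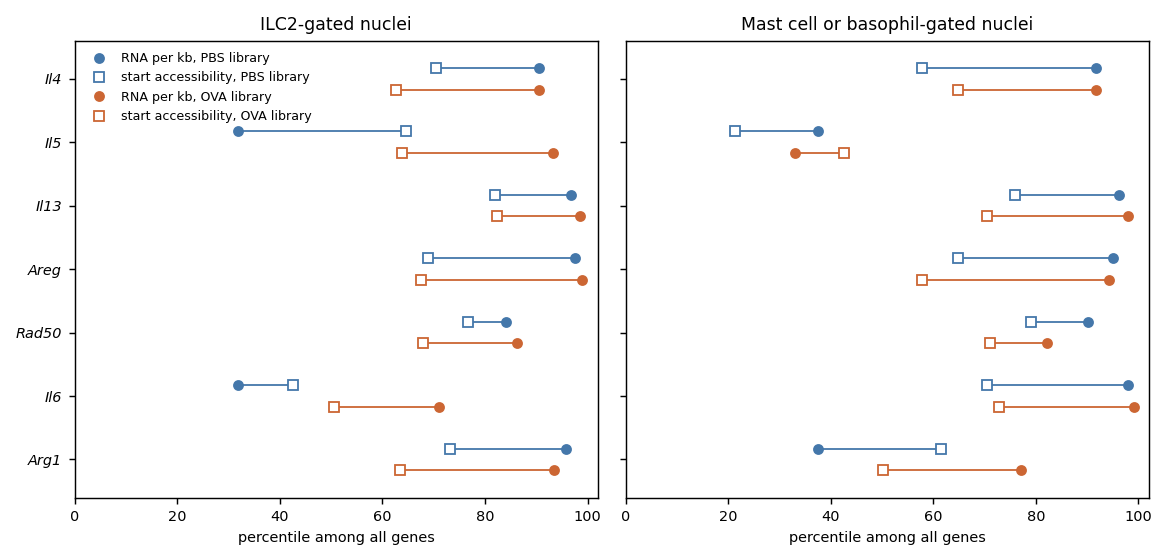
Percentile of each of the 7 genes among 32158 genes for RNA per kb of gene (filled circles) and for counts in regions within 2 kb of the start (open squares), in ILC2-gated and mast cell- or basophil-gated nuclei of the PBS (blue) and OVA (orange) libraries. Circles lie to the right of squares for Il13 and Areg in ILC2s of both libraries, and Il5 moves from percentile 31.8 to 93.4 for RNA between the libraries while its start is at 64.7 and 63.8.

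Between the libraries, Areg and Il13 RNA were higher in ILC2s of the OVA library, and Il4, Rad50 and Arg1 could not be told apart from equality. Areg was at 144 against 53.1 CPM, a log2 ratio of 1.44 (0.68 to 2.27), and Il13 at 44.4 against 15.6 CPM, or 1.51 (0.13 to 3.23). Il4 had 0.20 (-1.14 to 1.72), Rad50 0.47 (-0.47 to 1.504) and Arg1 -0.56 (-1.62 to 0.54). Of 5 genes tested 2 were called higher and none lower, against 7.65% and 1.36% of 4850 genes. Over all genes these were 371 higher and 66 lower, and 174 and 170 on the nuclear-gene scale. For Il5, at 7 UMIs against 0, the interval of 4.17 to 21.4 CPM overlapped the 9.37 CPM that 0 allows when bounded with 3 counts. Neither for Il5 nor for Il6 (1 against 0) is a ratio given.

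The scale moved part of this. The median gene was higher in the OVA library by 0.28, and on the nuclear-gene scale by 0.03. Relative to the median gene Areg was at 1.15 (0.40 to 1.99) and Il13 at 1.23 (-0.15 to 2.95), and on the nuclear-gene scale they were at 1.18 (0.43 to 2.02) and 1.25 (-0.13 to 2.98). Areg was thus called on each scale, and Il13 on the first scale only. Without nuclei outside the joint RNA and chromatin count limits, Il13 was at 0.95 (-0.60 to 2.93) and no longer called, and Areg at 1.08 (0.12 to 2.21). The direction of Il4 turned on the nuclear-gene scale, to -0.05, and relative to the median gene, to -0.08. With the mixed nuclei counted as ILC2s, Il13 was at 2.07 (0.75 to 3.76). The part of mitochondrial share and depth in these differences was not tested.

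Shares of nuclei at equal depth gave the same order for Areg. Thinning to a depth of 500 nuclear-gene UMIs per nucleus left 150 of 318 and 392 of 459 ILC2-gated nuclei deep enough. Areg was then detected in 2.67% (0.731 to 6.69) and 9.69% (6.95 to 13.1), against 3.77% and 11.98% before. Il13 was at 0.667% (0.0169 to 3.66) and 1.53% (0.564 to 3.30), with intervals that overlapped. Il4 (3.33% and 2.30%), Arg1 (3.33% and 1.79%) and Rad50 (3.33% and 2.81%) were lower in the OVA library within their intervals, and at 300 UMIs Il4 (1.44% and 1.76%) and Arg1 (1.44% and 1.54%) had the opposite order.

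Areg was also higher in epithelium of the OVA library. AT2-gated nuclei had 1.41 (0.78 to 2.08) on the log2 scale, nearly the value of ILC2s, and AT1-gated nuclei 1.04 (-0.16 to 2.45). Thinned AT2 shares were 4.31% and 5.66%, a far smaller step than in the CPM. Il6 in mast cell- or basophil-gated nuclei was at 1.46 (-0.05 to 3.44), and in AT2-gated nuclei, with 14 UMIs against 1, at 3.61 (0.90 to 9.01).

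Accessibility over the locus was compared next. Over regions with a peak in both libraries, the OVA over PBS log2 ratio of the 100 kb sum in ILC2s was -0.07 (-0.18 to 0.05) for Il13 (19067 bp of peaks in the OVA and 18655 bp in the PBS library), -0.06 (-0.17 to 0.05) for Il4, -0.08 (-0.19 to 0.02) for Il5, -0.11 (-0.21 to -0.01) for Rad50 and 0.21 (-0.25 to 0.67) for Areg. The regions within 2 kb of the start gave 0.00 (-0.34 to 0.35) for Il13, -0.11 (-0.68 to 0.47) for Il5 and -0.13 (-0.62 to 0.36) for Areg. They were lower in the OVA library for Il4, at -0.88 (-1.42 to -0.36), Rad50, at -0.70 (-1.14 to -0.27), and Arg1, at -0.65 (-1.18 to -0.13). These intervals take each count as independent. Counted by nuclei, the shares of ILC2-gated nuclei with a count within 2 kb of these starts had overlapping intervals. In the PBS and OVA libraries the shares were 9.43% (6.46 to 13.2) and 6.32% (4.27 to 8.95) for Il4. Rad50 was at 15.4% (11.6 to 19.9) and 9.59% (7.05 to 12.7), and Arg1 at 10.7% (7.52 to 14.6) and 6.32% (4.27 to 8.95). Of 66 shared regions with a ratio, 4 had an interval above 0 and 10 below, of which 2 and 8 were among the 42 of the chromosome 11 locus. The same shares over all shared regions were not taken. A shift of the whole library therefore cannot be told apart from one of these regions.

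**Figure D5:**
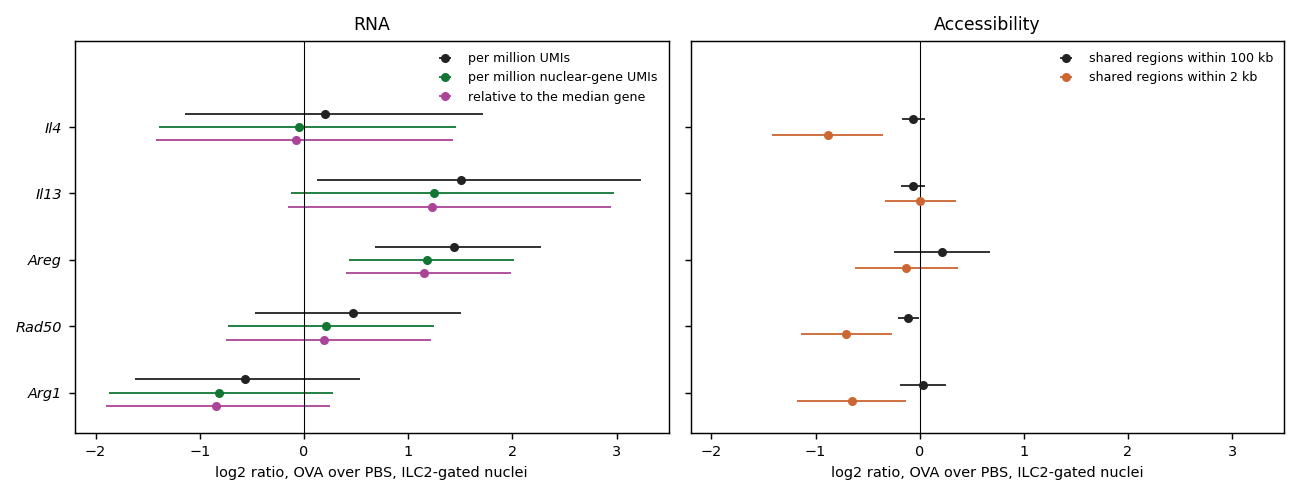
Log2 ratio of the OVA over the PBS library in ILC2-gated nuclei for RNA on 3 scales (left) and for counts in shared regions within 100 kb and 2 kb of the start (right), with exact 95% intervals for counting error. Areg RNA lies above 0 on each scale, Il13 RNA on the first only, and accessibility is close to 0 over 100 kb and below 0 at the starts of Il4, Rad50 and Arg1. The shares of nuclei with a count at those starts had overlapping intervals.

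Of 16 other features that start within 100 kb of the 7 genes, 11 in each library had no UMI in ILC2-gated nuclei, beside 63.6% and 58.1% of all 32158 genes. Sept8 was higher in ILC2s than in all other gated nuclei in both libraries, at 1.53 (0.50 to 2.46) and 1.61 (0.94 to 2.24). Tyms, of thymidylate synthesis, and Irf1, an interferon response factor, were lower in the PBS library, and Kif3a and Med23, a Mediator subunit, in the OVA library.

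Of 51 other genes of the type 2 pathway, 33 could be tested in the PBS library, with 8 higher and 5 lower in ILC2s than in all other gated nuclei, and 39 in the OVA library, with 10 and 13. Over all genes 7.82% and 20.5% were called higher and lower in the PBS library and 9.11% and 26.9% in the OVA library. Those higher in both libraries were the cytokines Lif and Tgfb1, the shared receptor chain Il2rg, the regulators Nfkb1, Rora, Ets1 and Nfatc2, and the arginine transporter Slc7a1. Il2rg was at 5.01 (3.84 to 6.35) and 4.39 (3.86 to 4.93) and Lif at 4.61 (3.39 to 5.98) and 4.03 (3.40 to 4.68). Nfkb1, through which IL-33 signals, was at 3.72 and 4.22. Of 7 receptors tested, 3 (PBS) and 5 (OVA) were lower, with Il13ra1, Il6ra and Il6st lower in both. Egfr, the amphiregulin receptor, was at -1.36 (-3.27 to 0.05) and -5.02 (-10.33 to -2.53). Il4ra, the receptor chain for IL-4 and IL-13, was called in neither, at -0.49 (-1.66 to 0.49) and 0.43 (-0.02 to 0.85). The related ligand Hbegf was also lower, at -3.67 and -4.48. The list had a median of -0.02 and -0.55, against -0.44 and -0.55 for all genes. Between the libraries 22 were tested and 3 were higher in ILC2s of the OVA library, Il4ra at 1.48 (0.45 to 2.69), Slc7a1 at 1.29 (0.65 to 1.99) and Nfkb1 at 1.24 (1.14 to 1.35), with a list median of 0.25 against 0.28 for all genes, of which 7.65% were called higher and 1.36% lower. On the nuclear-gene scale 2 were higher and 2 lower, and Nfkb1 was no longer called.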

How the data were processed

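RNA and open chromatin of the same nuclei were read in 2 libraries, 1 for each group, taken from the labels. The authors deposited raw counts from Cell Ranger ARC 2.0.1 on mm10, with no normalization stated for them: whole UMI counts for each gene and transposition counts in peaks called in each library separately. Per the labels no step had pooled the libraries, and 0 columns of other samples were present. The filter asked for at least 200 genes and no more than 60% mitochondrial UMIs per nucleus, and comparison with simulated doublets marked 7.85% (PBS) and 5.07% (OVA) of the nuclei for removal, leaving 4213 and 4980 with median depths of 1108 and 1818 UMIs. A type needed at least 2 detected markers, and at least 2 times as many as any other type. Clusters (Leiden, igraph 0.11.9, leidenalg 0.10.2) left out the members and pathway genes. For CPM, UMIs were summed by type and library, over the total of gene UMIs of the same nuclei. Peaks overlapping by at least 1 bp were merged. Intervals were exact Poisson, Clopper-Pearson and conditional binomial (95%, scipy 1.17.1), and a count of 0 was bounded with 3 counts. The ratio code was tested on simulated data. Genes were placed with GENCODE M21 and promoters taken from RefSeq. The members and lists were chosen with earlier results of these data known. Besides the members the text names pathway genes and neighbours past the call rule, and 3 genes per member most alike over the types. Alternatives covered gates, clusters, windows, filters, scales and thinning.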

Additional observations from a re-analysis of the deposited data

Results flagged for a closer look

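Some molecules of these genes lay outside the gated nuclei of the comparisons, at levels above those of the PBS library. Among barcodes removed by the filters, the OVA library held 5 Il4 UMIs (8.00 CPM, 2.60 to 18.7) in 714 barcodes against 2 (0.617 CPM) in 3447 barcodes of the PBS library. The same barcodes held 10 Il6 UMIs (16.0 CPM, 7.67 to 29.4) against 11 (3.40 CPM, 1.69 to 6.08). In kept nuclei that met no gate, with the mixed nuclei left out, the OVA library had 117 Areg UMIs (23.2 CPM, 19.2 to 27.8) in 2004 nuclei against 37 (10.7 CPM, 7.53 to 14.7) in 2013 nuclei of the PBS library. There were 65 Il6 UMIs in them (12.9 CPM, 9.95 to 16.4) against 24 (6.94 CPM, 4.45 to 10.3). With 1 library per group these differences have no replicate check.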

How the results depend on the processing

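No paired analysis was possible because neither group has more than 1 library. Of 237 alternatives, 28 of them chosen after seeing the data, 210 left the value within its interval or the count within 1.5 times, 24 moved it further and 3 turned the direction of a value whose interval had left out equality. Most of these concern 100 kb sums. For ILC2s over all other gated nuclei with a 50 kb window, Il5 in the OVA library turned to -0.045 and Areg in the PBS library to 0.99. With a gate of 3 markers Areg in the OVA library turned to -0.10. The 50 kb window also moved Il4 (3.41 and 3.35), Il13 (3.11 and 2.88), Rad50 (1.36 and 0.97), Il5 in the PBS library (0.19), Arg1 in the PBS library (0.79), Il6 (-1.27) and Areg (1.13) in the OVA library, and, for OVA over PBS, Il5 (-0.21), Rad50 (-0.22) and Arg1 (-0.35). The stricter gate moved Il4 (1.57), Il13 (1.72) and Arg1 (0.62) in the OVA library, Il5 (1.00), Areg (-0.98) and Rad50 (1.07) in the PBS library, and Areg RNA in the OVA library (2.10). With Leiden clusters Arg1 in the OVA library was at 0.094. The window changes which regions are summed, and the cause of the other shifts was not tested. Regions more open in ILC2s of the PBS library numbered 17 with a minimum of 50 counts and 21 with each nucleus counted once. The Areg share of the OVA library was 5.51% when thinned to 300 UMIs. For the RNA ratio of OVA over PBS in ILC2s, the direction held in each alternative run for Il13, Areg, Rad50 and Arg1, whereas Il4 turned to -0.05, -0.08 and -0.15 per nuclear-gene UMIs, relative to the median gene and with the joint count filter. Depth limits Il4 and Il5, with 7 to 17 and 0 to 7 UMIs in ILC2s.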
